A study of Mus musculus with 32 samples.

Results

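The MHC class I and immunoproteasome genes measured here were 10 genes given as a list: the heavy chains H2-K1, H2-D1 and H2-Q10, the light chain B2m, the peptide transporter and loading genes Tap1, Tap2 and Tapbp, and the immunoproteasome subunits Psmb8, Psmb9 and Psmb10. They were found by symbol among 47643 Ensembl gene IDs, of which 25444 had a count in at least 1 library, and all 10 passed the filter on low counts in both tissues. RNA was sequenced from the epididymal fat (eWAT) and liver of male C57BL/6 mice (C57BL/6J in the study's methods) that were 10 weeks old when they were given corticosterone (Cort), the main glucocorticoid hormone of mice, or the ethanol vehicle (Veh) in the drinking water for 7 days. The mice ate a normal protein diet (NPD, 20% of kcal from protein) or a high protein diet (HPD, 60% of kcal), and both diets were built on whey protein. Carbohydrate was lower in the HPD to keep the calories equal, so a difference between the diets is one of protein and carbohydrate together. Each of the 4 groups of a tissue, Veh NPD, Cort NPD, Veh HPD and Cort HPD, had 4 libraries. Liver Veh HPD replicate 4 was left out of the values below, which leaves 16 eWAT and 15 liver libraries, because the list was set without it.

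MHC class I molecules carry peptides of proteins made inside the cell to its surface, where CD8 T cells read them. Peptides are cut by the proteasome, pumped into the endoplasmic reticulum by the transporter of Tap1 and Tap2, and loaded with the help of tapasin (Tapbp) onto a heavy chain paired with B2m. In cells exposed to interferon gamma, and at rest in many immune cells, the catalytic subunits Psmb5, Psmb6 and Psmb7 of the proteasome are replaced by Psmb8, Psmb9 and Psmb10, which gives the immunoproteasome. Nearly all nucleated cells carry H2-K1 and H2-D1. H2-Q10 is a secreted heavy chain made mainly by hepatocytes. Glucocorticoids are known to dampen interferon responses.

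Of the 10 genes, 8 lie within 1.56 megabases of chromosome 17, in the MHC region (GRCm38, 33915899 to 35474563), while B2m is on chromosome 2 and Psmb10 on chromosome 8. Tap1 and Psmb9 lie head to head there and their annotated spans share 212 bases. B2m lies within the span of Patl2 on the opposite strand, and Tapbp, Tap2, Psmb8 and Psmb10 each overlap other annotated genes. Whether reads were counted by strand is not given in the sources used here, so reads of a gene and its antisense partner cannot be told apart. Patl2 itself had 0 counts in all 16 eWAT libraries and at most 0.0756 CPM (counts per 1000000 counts of the library) in liver. Zbtb22 shares 3422 bases with Tapbp on the same strand, and was at 11.5 to 28 CPM in eWAT and 8.43 to 18.5 CPM in liver. The libraries read the 3′ end of each transcript, so that a count does not grow with transcript length. Of the 50-base words in the last 400 bases of the annotated coding transcripts, 10.2% of those of H2-K1 and 10.1% of those of H2-D1 also occur in another gene. The share was 4.56% for Tapbp (with Zbtb22), 3.53% for Tap1 (with Tap2), 0.57% for H2-Q10 and 0% for B2m, Psmb8, Psmb9, Psmb10 and Tap2. Reads from such shared ends could be split between H2-K1, H2-D1 and their relatives, so the values of both carry this limit.

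Promoter windows of 300 bases (250 before to 50 after the annotated start, RefSeq, GRCm38.p6) were at hand for 9 members, Tap2 excepted. Stretches of 30 bases from 4 of them are shown because the 3 heavy chains carry related promoters at this place, while B2m carries the interferon motif. The capitals mark an NF-kB motif, spelled GGGA, any 3 bases, CCC and searched on both strands, in which 2 overlapping matches make up the 11 capitals of H2-K1 and of H2-D1, or the core of an interferon-stimulated response element, spelled GAAA, any 2 bases, GAAA, in B2m.
H2-K1, chr17:34000438-34000467, minus strand: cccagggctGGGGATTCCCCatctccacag
H2-D1, chr17:35262914-35262943, plus strand: cccagggctGGGGATTCCCCatctcctcag
H2-Q10, chr17:35469904-35469933, plus strand: cccagggctgaggactccccatctccccag
B2m, chr2:122147538-122147567, plus strand: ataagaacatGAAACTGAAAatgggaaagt
Counted from 1 at the 5′ end of the stretch, H2-D1 differed from H2-K1 by A27T, and H2-Q10 by G11A, T15C and A27C. The NF-kB motif was found in H2-K1 and H2-D1 only, 2 of the 9 members, and in 5.55% of all 32851 windows. The interferon motif was in B2m only (3.44% of all windows), and a STAT motif (TTC, any 3 bases, GAA) in Psmb8 only (8.3%). CCAAT was in 6 of the 9 members (37.4% of all windows) and TGACG in 5 (20.8%), while a glucocorticoid receptor motif (G, any base, ACA, any 3 bases, TGT, any base, C) was in 0 (0.475%). A match is not evidence of binding, and a missing match says only that these letters are not in the window.

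Library totals were 9794683 to 18057936 counts in eWAT and 8933307 to 17447524 in liver, and the CPM values below were scaled by TMM factors within each tissue. The labels of both tissues held: in eWAT Veh NPD the 8 adipocyte markers summed to 34285 to 46227 CPM, and in liver Veh NPD the 8 hepatocyte markers to 91754 to 124200.0 CPM. eWAT Cort HPD replicate 4 held RNA of epididymis, with 10 markers that summed to 8461 CPM. The liver library left out had a hepatocyte sum of 40306 CPM against 79248 to 89269.5 CPM in the other 3 Veh HPD libraries, a leukocyte sum of 111 against 39.2 to 55.1 CPM, H2-K1 at 809 CPM and B2m at 1834 CPM.

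In eWAT of mice on the NPD, Cort lowered genes at each step of the class I pathway: 8 of the 10 fell at an adjusted p under 0.05, and none rose. The immunoproteasome subunits Psmb8 and Psmb9 fell most, to 0.277 and 0.288 of Veh NPD, and the heavy chain H2-K1 fell to 0.441. Of all 15187 genes tested by edgeR's quasi-likelihood test, 3.93% were called lower. The libraries of Cort NPD and Veh NPD did not overlap for the 8 genes, as for 7.39% of all genes in that direction, and all 8 were called in each of 8 alternative fits and each of 16 fits with 1 library left out. The median log2 fold change of the members was -0.87, against -0.02 over all genes tested. In whole tissue, fewer cells that carry these transcripts and less RNA per cell cannot be told apart.

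**Figure D1:**
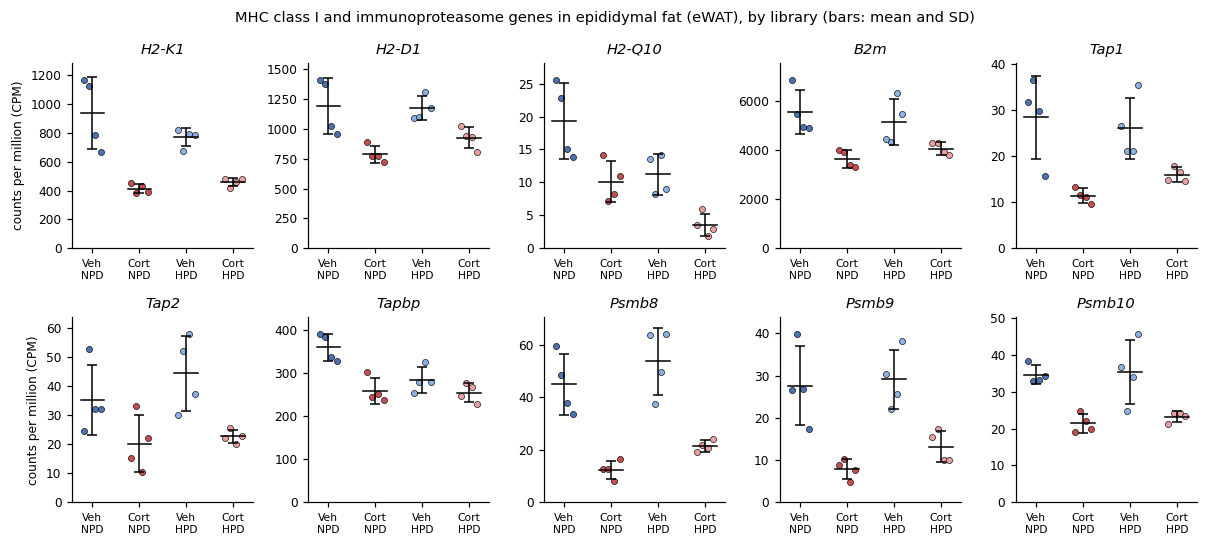
CPM of the 10 genes in each of the 16 eWAT libraries (points), with the mean (line) and SD (bar) of the 4 libraries of a group, and the CPM axis of each panel starting at 0. Both Cort groups lie below both Veh groups for Psmb8, Psmb9 and H2-K1, while Tapbp and Tap2 overlap.

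The classical heavy chains present peptides to CD8 T cells. H2-K1 (ENSMUSG00000061232, chromosome 17, 33996017 to 34000347, minus strand) was at 1168, 1129, 785 and 670.2 CPM in Veh NPD and 449.5, 384, 434 and 388 CPM in Cort NPD. On the HPD it was at 821, 678, 794 and 786 CPM in Veh and 479.8, 421, 459 and 482 CPM in Cort, so that no Cort library reached the lowest Veh library on either diet. With Cort, H2-K1 changed on the log2 scale by -1.18 (SE 0.14, adjusted p = 3.35e-06, edgeR) on the NPD and -0.74 (SE 0.14, adjusted p = 0.0014, edgeR) on the HPD. H2-D1 (ENSMUSG00000073411, chromosome 17, 35262730 to 35267499, plus strand) ranged over 960.4 to 1412 CPM in Veh NPD and 723 to 887 CPM in Cort NPD, without overlap, and fell by 0.60 on the log2 scale (adjusted p = 0.0035, edgeR). On the HPD it ranged over 1095 to 1313 CPM in Veh and 809.9 to 1028 CPM in Cort, with a log2 change of -0.34 that did not pass (adjusted p = 0.137, edgeR, 95% interval -0.60 to -0.07).

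B2m (ENSMUSG00000060802, chromosome 2, 122147686 to 122153083, plus strand), the light chain that pairs with class I heavy chains, was at 6856, 5485, 4956 and 4912 CPM in Veh NPD and 3984, 3919.8, 3378 and 3294 CPM in Cort NPD. The highest Cort NPD library stayed below the lowest Veh NPD library, and the log2 change was -0.61 (SE 0.13, adjusted p = 0.00419, edgeR). On the HPD B2m was at 4431, 4317, 6316 and 5454 CPM in Veh and 4279.8, 4269, 3899 and 3788 CPM in Cort, groups that were apart by a narrow margin, with a log2 change of -0.34 (adjusted p = 0.152, edgeR) that did not pass.

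Tap1 (ENSMUSG00000037321, chromosome 17, 34187553 to 34197225, plus strand), a subunit of the peptide transporter, was at 31.6, 36.5, 29.6 and 15.6 CPM in Veh NPD and 13.4, 11.6, 11 and 9.62 CPM in Cort NPD, and fell by 1.31 on the log2 scale (SE 0.22, adjusted p = 3.03e-04, edgeR). The NPD groups did not overlap, although Veh NPD replicate 4 lay close above the highest Cort library. On the HPD Tap1 was at 26.4, 21.1, 21.1 and 35.3 CPM in Veh and 14.8, 17.9, 16.6 and 14.5 CPM in Cort, with a log2 change of -0.70 just outside the threshold (adjusted p = 0.0541, edgeR). Its partner Tap2 (ENSMUSG00000024339, chromosome 17, 34203527 to 34216321, plus strand) overlapped between the NPD groups, at 24.6 to 52.7 CPM in Veh and 10.3 to 33.1 CPM in Cort, and did not pass on the NPD (-0.81, adjusted p = 0.134, edgeR) or on the HPD (-0.97, adjusted p = 0.0763, edgeR), although it was called lower in 3 of 8 alternatives on the NPD and 5 of 8 on the HPD. Tapbp (ENSMUSG00000024308, chromosome 17, 33915899 to 33929292, plus strand), the bridge between the transporter and the heavy chain, ranged over 328 to 391 CPM in Veh NPD and 237 to 303 CPM in Cort NPD and fell by 0.47 (adjusted p = 0.0112, edgeR), the smallest of the 8 falls. In the HPD groups it was at 254 to 327 CPM and 228 to 277 CPM, and did not pass (-0.16, adjusted p = 0.516, edgeR).

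Psmb8 (ENSMUSG00000024338, chromosome 17, 34197721 to 34201454, plus strand), which takes the place of Psmb5, was at 59.5, 48.5, 37.8 and 33.8 CPM in Veh NPD and 12.6, 12.6, 8.12 and 16.5 CPM in Cort NPD. On the HPD it was at 63.7, 37.4, 49.4 and 64 CPM in Veh and 19, 21.7, 20.5 and 24.2 CPM in Cort. Every Cort library lay below every Veh library of both diets, and every Cort HPD library above every Cort NPD library. The log2 fold change with Cort was -1.85 (SE 0.21, adjusted p = 1.33e-06, edgeR) on the NPD and -1.33 (SE 0.20, adjusted p = 1.33e-04, edgeR) on the HPD. Psmb9 (ENSMUSG00000096727, chromosome 17, 34181987 to 34187764, minus strand), which replaces Psmb6, was at 26.6, 39.8, 26.8 and 17.4 CPM in Veh NPD and 8.9, 10.3, 4.89 and 7.66 CPM in Cort NPD. Its HPD values were 30.3, 22.2, 25.6 and 38.3 CPM in Veh and 15.4, 17.3, 9.9 and 10.1 CPM in Cort, again without overlap. It fell by 1.79 (adjusted p = 5.32e-05, edgeR) on the NPD and by 1.15 (adjusted p = 0.00586, edgeR) on the HPD. Psmb10 (ENSMUSG00000031897, chromosome 8, 105935735 to 105938444, minus strand), which replaces Psmb7, ranged over 32.9 to 38.4 CPM in Veh NPD and 19.1 to 24.9 CPM in Cort NPD (-0.69, adjusted p = 0.00794, edgeR). On the HPD its fall of 0.60 passed in the fit reported here (adjusted p = 0.0268, edgeR) but in only 5 of 8 alternatives. It was lost without Veh HPD replicate 1 or 4 or Cort HPD replicate 1, 3 or 4, with an adjusted p of 0.0548 without the last of these, the library with epididymis RNA.

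On the HPD, 5 of the 10 genes were called lower with Cort in eWAT (Psmb8, H2-Q10, Psmb9, H2-K1 and Psmb10), as were 2.63% of all genes, and none rose. Groups were apart for 9 of the 10, Tapbp excepted, where 5.39% of all genes were apart in that direction. Whether the Cort effect differed between the diets was tested as the interaction of diet and Cort. For it 0 of the 10 genes passed by edgeR, DESeq2 or limma voom (background 0.0132%). H2-K1 alone had an unadjusted p under 0.05 by edgeR, as did 784 of all 15187 genes. The 95% interval of the H2-K1 interaction was 0.03 to 0.85 on the log2 scale. For Psmb8 the interval was -0.06 to 1.12 and for Psmb9 -0.10 to 1.39.

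Between the diets in eWAT, in Veh mice 0 of the 10 passed by edgeR, DESeq2 or limma voom (background 0.0593%). An unadjusted p under 0.05 by edgeR was reached by 2 of the 10, and by 1219 of all 15187 genes. The 2 were Tapbp (-0.34, 95% interval -0.58 to -0.10) and H2-Q10 (-0.79, 95% interval -1.40 to -0.18). In Cort mice only H2-Q10 passed, 1 of 10 against 0.487% of all genes, and it was lower on the HPD. Psmb8 was higher on the HPD among Cort mice by 0.78 (adjusted p = 0.11, edgeR) and Psmb9 by 0.72 (adjusted p = 0.328, edgeR), values that did not pass.

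Markers of other cells moved with Cort in eWAT. The sum of 8 general leukocyte markers was 277 to 326 CPM in Veh NPD and 125 to 161 CPM in Cort NPD, with 6 of the 8 called lower, and 204 to 292 against 153 to 186 CPM on the HPD, with 2 of the 8 called lower. The 7 dendritic cell markers were at 24.3 to 43.5 CPM in Veh NPD and 11.7 to 15.3 CPM in Cort NPD (4 of 7 called lower, Xcr1 and Ccr7 at 0 in all 4 Cort NPD libraries) and at 24.3 to 39.1 against 12.2 to 17.8 CPM on the HPD (2 of 7). Adipose stromal markers were at 3521 to 4163 CPM in Veh NPD and 2194 to 2370.5 CPM in Cort NPD, with 4 of 6 called lower. Macrophage markers overlapped, at 1339 to 1545 CPM in Veh NPD and 1173 to 1490.5 CPM in Cort NPD, with 3 of 10 called lower. Of 10 T and NK cell markers 7 passed the filter and 0 were called with Cort on either diet, with sums of 6.2 to 16.1 CPM in Veh NPD, 2.76 to 6.41 CPM in Cort NPD, 6.98 to 17.1 CPM in Veh HPD and 2.26 to 97.5 CPM in Cort HPD. In the last group 1 library stood far above the others, with a median of 4.08 CPM over the 4 libraries. Red blood cell markers were at 3891 to 7133 CPM in Veh NPD, 3619 to 6491 CPM in Cort NPD, 5251 to 9273 CPM in Veh HPD and 12684 to 25856 CPM in Cort HPD. The part of all these cells in the falls of the class I genes was not tested.

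In liver, on the NPD, the 3 immunoproteasome subunits were the members called lower with Cort by edgeR, 3 of 10 against 5.79% of all 12391 genes. Tap2 did not pass (-0.64, adjusted p = 0.0652, edgeR), but was called lower in 2 of 9 alternatives, DESeq2 and the fit without a filter, and in 4 of 15 fits with 1 library left out. On the HPD 0 of the 10 passed by edgeR, DESeq2 or limma voom, where 9.89% of all genes were called. B2m alone had an unadjusted p under 0.05 by edgeR (0.43, 95% interval 0.02 to 0.83), a level that 3008 of all 12391 genes reached. Among Cort mice, 7 of the 10 were called higher on the HPD than on the NPD, against 3.08% of all genes, and none was lower. The libraries did not overlap for 7 members (the 7 called, with H2-Q10 in place of Tap2), as for 6.61% of all genes in that direction. The comparison of Cort with Veh on the NPD and that of the diets in Cort share the 4 Cort NPD libraries. The 3 falls were called in all 9 alternatives, but only 1 member was called without Veh NPD replicate 2, Cort NPD replicate 2 or Cort NPD replicate 3.

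**Figure D2:**
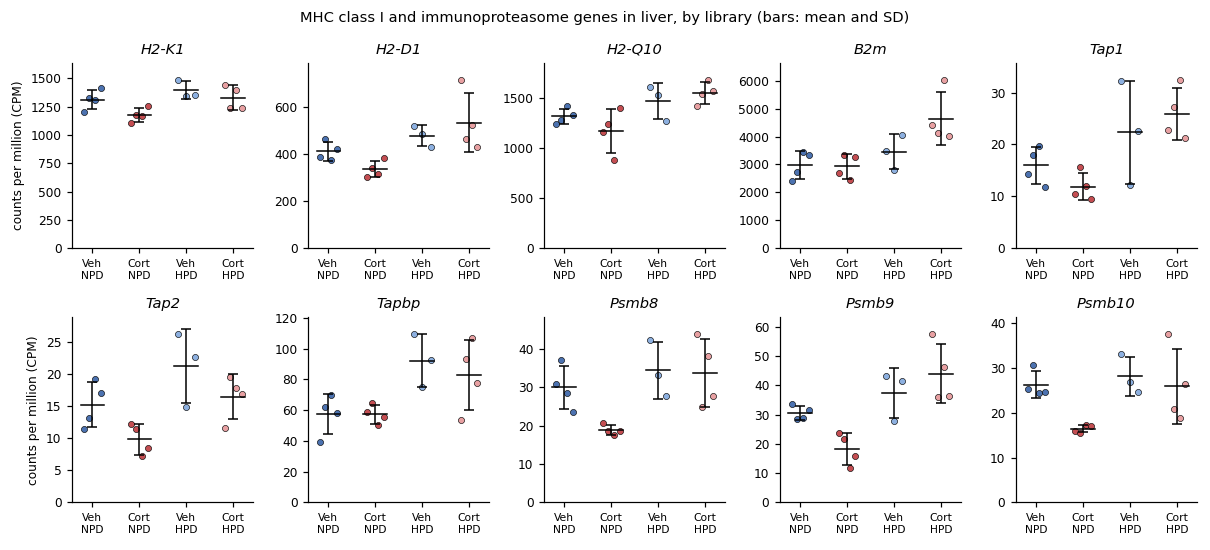
CPM of the 10 genes in each of the 15 liver libraries used (points), with the mean (line) and SD (bar) of each group of 4, or 3 for Veh HPD, on axes that start at 0. The Cort NPD libraries lie lowest for Psmb8, Psmb9 and Psmb10, while the Cort HPD libraries overlap the Veh HPD libraries.

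Psmb8 was at 30.9, 37.1, 28.4 and 23.5 CPM in Veh NPD, 20.7, 18.6, 17.5 and 18.6 CPM in Cort NPD, 42.3, 33.2 and 27.6 CPM in Veh HPD and 43.8, 24.9, 38 and 27.7 CPM in Cort HPD. Cort NPD was the only group that stood apart from each of the others. Psmb8 fell by 0.67 with Cort on the NPD (SE 0.19, adjusted p = 0.0211, edgeR) and was higher by 0.83 on the HPD among Cort mice (SE 0.19, adjusted p = 0.0102, edgeR). Psmb9 was at 33.6, 28.5, 29 and 31.5 CPM in Veh NPD, 23.5, 21.7, 11.8 and 16 CPM in Cort NPD, 43.2, 27.7 and 41.6 CPM in Veh HPD and 57.6, 36, 46.1 and 36.3 CPM in Cort HPD. The Cort NPD libraries again lay below all the others. Its log2 fold change was -0.75 with Cort on the NPD (adjusted p = 0.0173, edgeR) and 1.27 for HPD against NPD in Cort (adjusted p = 6.90e-04, edgeR), the latter called in all 9 alternatives and all 15 fits with 1 library left out. Psmb10 was at 25.4, 30.7, 24.4 and 24.5 CPM in Veh NPD, 16, 15.5, 17.2 and 17.1 CPM in Cort NPD, 33, 26.8 and 24.5 CPM in Veh HPD and 37.6, 20.9, 18.7 and 26.4 CPM in Cort HPD, the last group being the widest. It fell by 0.67 with Cort on the NPD (adjusted p = 0.0182, edgeR), and its difference of 0.65 between the diets in Cort (adjusted p = 0.0378, edgeR) passed in only 3 of 9 alternatives.

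Tap1 was at 10.4, 15.6, 12 and 9.54 CPM in Cort NPD and 22.7, 27.2, 32.4 and 21.2 CPM in Cort HPD, without overlap, and at 14.3, 18, 19.7 and 11.8 CPM in Veh NPD and 32.2, 12.3 and 22.5 CPM in Veh HPD. Among Cort mice it was higher on the HPD by 1.13 (SE 0.24, adjusted p = 0.00912, edgeR), a call kept in all 9 alternatives. Tap2 ranged over 7.19 to 12.2 CPM in Cort NPD and 11.5 to 19.6 CPM in Cort HPD, which overlapped, and its difference of 0.75 (adjusted p = 0.0476, edgeR) passed in only 4 of 9 alternatives. Tapbp was at 39.5 to 70.04 CPM in Veh NPD and 74.8 to 109.5 CPM in Veh HPD, apart but not past the threshold (0.68, adjusted p = 0.231, edgeR), and at 50.04 to 64.7 and 53.3 to 107 CPM in Cort NPD and Cort HPD (0.54, adjusted p = 0.107, edgeR).

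Among the heavy chains, H2-D1 was at 389, 466, 375 and 423 CPM in Veh NPD, 305, 343, 317 and 386 CPM in Cort NPD, 519.7, 484 and 431 CPM in Veh HPD and 716, 467, 525 and 430.3 CPM in Cort HPD. The Cort groups of both diets did not overlap, and H2-D1 was higher on the HPD by 0.66 (SE 0.16, adjusted p = 0.0162, edgeR). H2-K1, in contrast, ranged over 1104 to 1253 CPM in Cort NPD and 1236 to 1443 CPM in Cort HPD, and did not pass (0.18, 95% interval -0.10 to 0.45). B2m was at 2414, 2731, 3434 and 3334 CPM in Veh NPD, 2710.0, 3343, 2432 and 3282 CPM in Cort NPD, 3495, 2821 and 4054 CPM in Veh HPD and 4422, 4123, 6030.1 and 4015 CPM in Cort HPD. Its Cort HPD libraries lay above every Cort NPD library, with a log2 difference of 0.66 (SE 0.18, adjusted p = 0.0332, edgeR) that passed in 5 of 9 alternatives.

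For HPD against NPD in Cort, the count of 7 became 4 under each of 4 alternatives (library totals without factors, the replicate number as a term, only the 2 groups in the fit, all 16 liver libraries) and fell to 4 and 3 without liver Cort NPD replicate 1 and replicate 3. With library totals alone the median log2 difference over all genes was -0.18, against -0.01 with TMM factors, so the differences of the members are to be read against that shift, and for Cort against Veh on the HPD it was -0.24 against -0.00. Psmb9, Tap1, Psmb8 and H2-D1 were called in all 9 alternatives. The H2-D1 call was lost, however, without liver Cort NPD replicate 1 (adjusted p = 0.0524, edgeR) or replicate 3 (adjusted p = 0.0511, edgeR). In Veh mice 0 of the 10 passed between the diets by edgeR, DESeq2 or limma voom (background 0.169%), with all 10 log2 values above 0 and a median of 0.21 against 0.00 over all genes. There Tapbp alone had an unadjusted p under 0.05 by edgeR, as did 1165 of all 12391 genes. For the interaction of diet and Cort 0 of the 10 passed by the same 3 tools (background 0.113%), so the difference between the diets was not shown to depend on Cort. The 95% interval of the interaction was 0.36 to 1.59 for Psmb9 and 0.06 to 1.20 for Psmb8. They were the 2 members with an unadjusted p under 0.05 by edgeR, a level that 1496 of all 12391 genes reached.

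**Figure D3:**
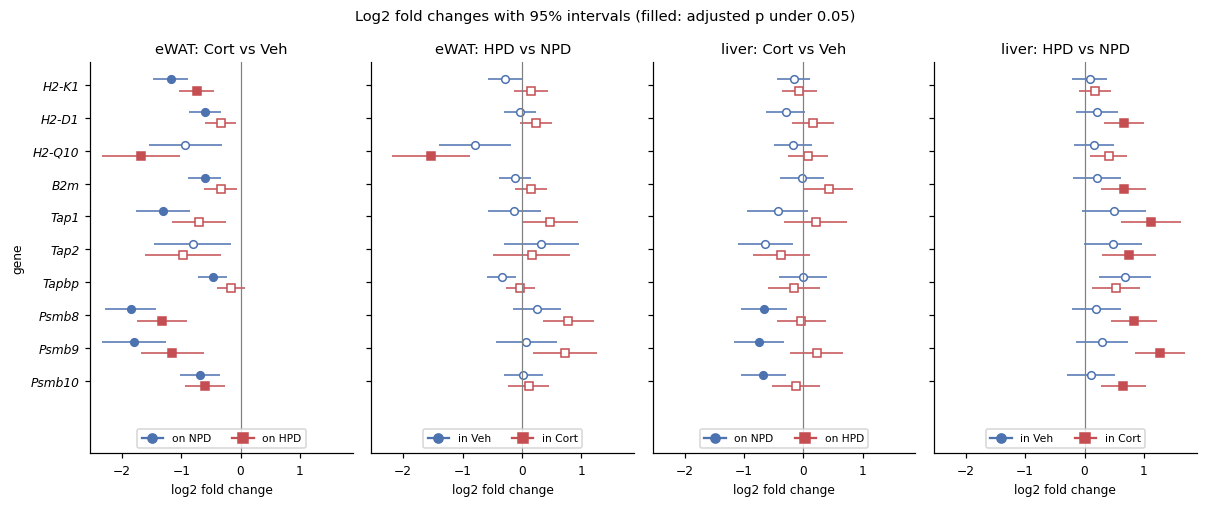
Log2 fold changes (x axis) of the 10 genes (y axis) with 95% intervals of the edgeR fit, for Cort against Veh and HPD against NPD in eWAT and liver. Filled symbols passed an adjusted p under 0.05: 8 and 5 falls with Cort in eWAT, 1 fall with the HPD among Cort mice in eWAT (H2-Q10), and 3 falls with Cort and 7 rises with the HPD among Cort mice in liver.

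In liver the leukocyte sum was 38 to 62.9 CPM in Veh NPD and 13.7 to 25.4 CPM in Cort NPD (6 of 8 markers called lower), and 39.2 to 55.1 against 19.2 to 28.1 CPM on the HPD (5 of 8 called lower). Kupffer cell markers were at 284 to 362 CPM in Veh NPD, 139 to 348 CPM in Cort NPD, 285 to 377 CPM in Veh HPD and 172 to 204 CPM in Cort HPD. Between the diets in Cort mice, 0 of 8 leukocyte markers were called, and 2 of 6 Kupffer cell markers were called higher on the HPD. The hepatocyte sum was highest in Cort HPD, at 142884 to 248952 CPM against 99687 to 124612 CPM in Cort NPD, and red blood cell markers were at 5271 to 7622 against 1358 to 3544 CPM. What these levels contribute to the class I values was not tested.

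Whether the Cort effect on these genes differed between liver and eWAT was tested in 1 fit of all 31 libraries, as the mean Cort effect over both diets. It differed for 6 of the 10 genes, each with a smaller fall or a rise in liver, against a background of 3.88% of all 16482 genes. The differences (liver minus eWAT, log2) were 1.24 for Psmb8 (SE 0.21, adjusted p = 1.29e-04, edgeR), 1.27 for H2-Q10, 1.21 for Psmb9, 0.90 for Tap1, 0.85 for H2-K1 and 0.68 for B2m (SE 0.18, adjusted p = 0.0141, edgeR). All 6 passed in all 8 alternatives and all 31 fits with 1 library left out. For the effect of the HPD in Cort mice, 1 gene differed between the tissues, H2-Q10 (background 1.23%), with 1.90 (SE 0.34, adjusted p = 0.00429, edgeR).

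In Veh NPD mice, 6 of the 10 genes differed in level between liver and eWAT, where 62.7% of all genes did. H2-Q10 was higher in liver by 7.12 on the log2 scale, H2-K1 by 1.52, Psmb9 by 1.19 and Psmb10 by 0.64, whereas Tapbp (-1.61) and H2-D1 (-0.49) were lower there. These values rest on the scaling between unlike tissues: the median over all genes was -0.26 with TMM factors and -1.28 with library totals. With library totals Psmb10, B2m, Tap1 and Psmb8 turned sign and passed as lower in liver. Psmb9 was then at 0.17 and did not pass (adjusted p = 0.522, edgeR).

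H2-Q10 (ENSMUSG00000067235, chromosome 17, 35470089 to 35474563, plus strand) is the secreted heavy chain. In eWAT it was at 25.6, 22.9, 15.1 and 13.8 CPM in Veh NPD and 14.1, 7.12, 8.2 and 11 CPM in Cort NPD, which overlapped (-0.94, adjusted p = 0.0525, edgeR, and past the threshold in 6 of 8 alternatives). On the HPD it was at 13.5, 8.2, 14.2 and 8.95 CPM in Veh and 3.47, 5.9, 1.93 and 2.96 CPM in Cort, where the groups were apart and it fell by 1.68 (SE 0.32, adjusted p = 0.00124, edgeR). The Cort HPD libraries were the lowest of all 16, and among Cort mice H2-Q10 was lower with the HPD than with the NPD by a log2 value of -1.53 (SE 0.32, adjusted p = 0.0208, edgeR), in 6 of 8 alternatives. That call was lost without Cort NPD replicate 1 or 4 or Cort HPD replicate 1, 3 or 4. In liver H2-Q10 was at 1235, 1274, 1414 and 1327 CPM in Veh NPD, 1157, 1238, 881 and 1393 CPM in Cort NPD, 1601, 1528 and 1262 CPM in Veh HPD and 1413, 1533, 1676 and 1561 CPM in Cort HPD, and it was called in no comparison within liver by edgeR. Among Cort mice the liver groups were apart, and the difference of 0.41 between the diets (adjusted p = 0.122, edgeR) passed in 2 of 9 alternatives, DESeq2 and limma voom with quality weights. The 8 hepatocyte markers summed in eWAT to 917 to 2157 CPM in Veh NPD, 2082 to 3997 CPM in Cort NPD, 1297 to 2480.2 CPM in Veh HPD and 2484 to 2965 CPM in Cort HPD, and 0 of the 5 that passed the filter were called in any eWAT comparison. H2-Q10 was 1.06% to 1.51% of the sum in Veh NPD and 0.0706% to 0.199% in Cort HPD. Alb alone was at 47.1 to 68.5 CPM in eWAT Veh NPD and 49.3 to 84.2 CPM in eWAT Cort HPD, against 43309 to 69030 CPM in liver Veh NPD. Most of the eWAT sum thus came from other markers of the list, and whether it follows hepatocyte RNA was not tested.

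**Figure D4:**
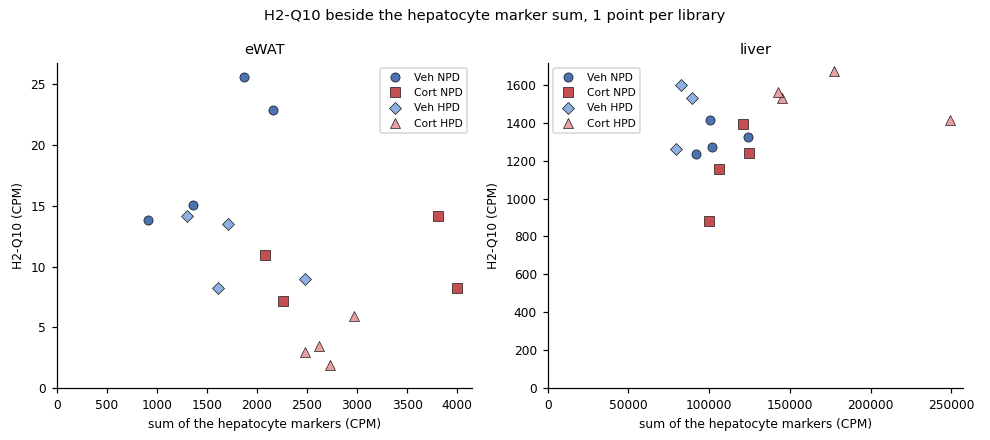
H2-Q10 (y axis, CPM) against the sum of 8 hepatocyte markers (x axis, CPM) in each of 16 eWAT (left) and 15 liver (right) libraries, on axes that start at 0. The eWAT Cort HPD libraries hold the least H2-Q10 at a marker sum of 2484 to 2965 CPM, above that of all 4 Veh NPD libraries.

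Count ratios within a library do not depend on the scaling between libraries. They were chosen after the values had been seen, and counts at a 3′ end are not protein amounts. The ratio of Psmb8 to Psmb5, the subunit it replaces, was 1.93 ± 0.178 (SD, n = 4) in eWAT Veh NPD, 0.571 ± 0.121 (SD, n = 4) in Cort NPD, 2.9 ± 0.425 (SD, n = 4) in Veh HPD and 1.2 ± 0.149 (SD, n = 4) in Cort HPD, with no overlap between any pair of these groups. Psmb9 to Psmb6 ranged over 0.142 to 0.342 and 0.0403 to 0.0937 in Veh NPD and Cort NPD, and 0.196 to 0.29 and 0.081 to 0.134 in Veh HPD and Cort HPD. Psmb10 to Psmb7 was 0.347 to 0.425 in Veh NPD against 0.162 to 0.23 in Cort NPD, and 0.299 to 0.426 in Veh HPD against 0.206 to 0.253 in Cort HPD. In liver, Psmb9 to Psmb6 was 0.0913 to 0.15 in Cort NPD, below the 0.167 to 0.206 of Veh NPD and the 0.248 to 0.295 of Cort HPD. The other subunit ratios overlapped between these liver groups. Psmb8 to Psmb5 was 0.737 to 1.09 in Cort NPD, 1.06 to 1.54 in Veh NPD and 1.04 to 1.62 in Cort HPD. Psmb10 to Psmb7 was 0.0746 to 0.119 in Cort NPD, 0.11 to 0.175 in Veh NPD and 0.0752 to 0.159 in Cort HPD. H2-K1 to H2-D1 was 0.777 ± 0.0601 (SD, n = 4) in eWAT Veh NPD and 0.526 ± 0.0291 (SD, n = 4) in Cort NPD, while in liver it was 2.84 to 3.49 in Veh NPD. Over the 32 comparisons of these ratios, the smallest p that the two-sided exact permutation test can give for 4 against 4 is 0.0286, and it came to 0.0704 after Benjamini-Hochberg adjustment, so none passed.

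**Figure D5:**
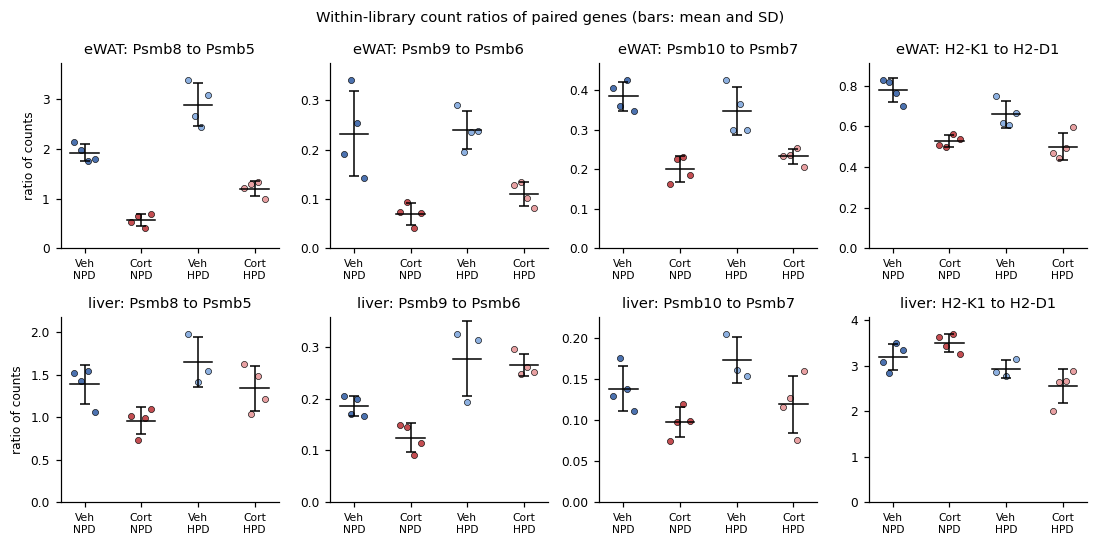
Within-library count ratios (y axis) of the immunoproteasome subunits to the subunits they replace, and of H2-K1 to H2-D1, in eWAT (upper row) and liver (lower row), by group. Points are libraries, lines the mean and bars the SD, and the eWAT ratios of all 3 subunits lie lower in Cort than in Veh on each diet.

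The other genes of the pathway were followed in lists, and Psmb5, Psmb6, Psmb7 and Nlrc5 were singled out after their values were seen. The counts called in these lists are to be read beside the shares of all genes tested that edgeR called in either direction. With Cort these shares were 7.98% and 6.09% in eWAT on the NPD and the HPD, and 12.6% and 9.89% in liver. Between the diets in Cort mice they were 0.487% in eWAT and 5.88% in liver. Of the 12 constitutive catalytic subunits, activators and assembly factors of the proteasome 0 were called with Cort in eWAT on either diet, and of the 11 other core subunits also 0. Psmb5 (-0.09), Psmb6 (-0.08) and Psmb7 (0.25) had adjusted p of 0.86, 0.821 and 0.388 on the NPD. In liver on the NPD, 1 of the 12 (Psme1, a subunit of the interferon-induced proteasome activator, -0.64) and 2 of the 11 (Psma5, -0.79, and Psmb3, -0.50) were called lower. There 5.79% of all genes were called lower. All 11 other core subunits had log2 values below 0 in that comparison, with a median of -0.33 against -0.36 for the members. For HPD against NPD in liver Cort mice, 10 of the 11 were above 0, with a median of 0.33 against 0.66 for the members. Of them 1, Psma5 (1.01), was called higher, where 3.08% of all genes were.

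Of 13 tested nonclassical class I genes, 4 were called lower and 1 higher with Cort in eWAT on the NPD, among them H2-Q7, a nonclassical heavy chain (-2.18, adjusted p = 8.19e-06, edgeR), and H2-T22, a ligand of gamma delta T cells (-0.90). Cd1d1, which presents lipids to NKT cells, was the 1 called higher (0.70 on the NPD and 0.99 on the HPD). H2-Q7 also fell with Cort in liver on the NPD (-1.44, adjusted p = 4.17e-07, edgeR) and the HPD (-0.91). Among liver Cort mice 4 of the 15 genes tested were called higher on the HPD, H2-Q7 among them (0.91), and 0 lower. Of the 15, 10 had log2 values above 0 and 5 below. How reads of H2-Q7 were told from those of its near copies is not given in the sources used here.

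Of the 10 genes that trim peptides and load or fold heavy chains, 1 was called lower with Cort in eWAT on each diet. It was Erap1, the peptidase that trims peptides in the endoplasmic reticulum (-0.71 on the NPD, adjusted p = 0.0468, edgeR, and -0.80 on the HPD). In liver Cort mice 3 of the 10 were called lower on the HPD, the chaperone Calr (-0.81) and the glycoprotein folding genes Uggt1 (-0.96) and Ganab (-0.58). With Cort on the NPD in liver 2 of the 10, Uggt1 and Ganab, were called higher (0.74 and 0.53).

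Of 24 regulators of class I genes, 2 fell and 1 rose with Cort in eWAT on the NPD, and 2 fell on the HPD. These counts are near the shares of all genes called there, 7.98% and 6.09%. Irf9, a factor of the interferon response, fell with Cort in eWAT on the NPD (-1.11, adjusted p = 5.57e-04, edgeR) and was higher on the HPD among Cort mice in eWAT (0.97) and liver (0.86). Irf8, a factor of myeloid cells, fell with Cort in eWAT on both diets (-0.71 and -0.56) and in liver on both (-0.76 and -1.73). In liver Cort mice, Irf1, an activator of class I genes, was higher on the HPD (0.84, adjusted p = 0.0131, edgeR). Nlrc5, the transactivator of class I genes, passed in neither tissue (-0.45 with Cort in eWAT on the NPD and 0.77 for HPD against NPD in liver Cort mice, adjusted p = 0.0988, edgeR).

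Of 21 tested interferon-induced genes outside the class I pathway, 8 were called lower with Cort in eWAT on the NPD and 4 on the HPD. Cxcl9, a chemokine that draws T cells, was at -2.60 and -1.49. Among eWAT Cort mice 3 were called higher on the HPD, and all 21 had log2 values above 0. Their median there was 0.91, against 0.02 for all genes tested. In liver 4 were called lower with Cort on the NPD and 3 higher with Cort on the HPD. Among liver Cort mice 19 of the 21 were called higher on the HPD than on the NPD, Mx1 by 5.05 and Bst2 by 1.19. Their median in that comparison was 2.49, against 0.66 for the members and -0.01 for all genes tested. Between the diets in liver Veh mice 0 of the 21 were called, but 20 had log2 values above 0. The median there was 1.03, against 0.00 for all genes tested. For the interaction of diet and Cort in liver 0 of the 21 passed.

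The genes whose pattern was most like the members' mean (Pearson's r of log2 CPM with the mean of the standardised members) were Lgals3bp (0.95), Art3 (0.94), Cxcl9 (0.94), H2-Aa (0.94) and C2 (0.94) over the 16 eWAT libraries, and Irf7 (0.93), Apol9b (0.92), Phf11d (0.92), Apol9a (0.91) and Bst2 (0.91) over the 15 liver libraries. Apol9a and Apol9b are near copies of each other. Among the members themselves, r with the mean of the others was highest for H2-K1 in eWAT (0.95) and for Psmb9 in liver (0.87), and lowest for H2-Q10 in eWAT (0.60) and for Psmb10 in liver (0.61). These correlations run across libraries of all 4 groups, which share the treatment, and are a description.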

How the data were processed

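Deposited were raw counts of 3′-end reads (QuantSeq 3′ FWD libraries) for 32 libraries, made by the authors from alignments to GRCm38 (mm10), the build that the submitters' processing notes name. The aligner, counter, annotation release and strand setting are not given in the sources used here. Library totals ran from 8933307 to 18057936 counts, and 0 columns of the deposited table went unused. Ensembl IDs were paired with symbols from GENCODE, and 419 IDs had none. Counts were tested with edgeR 4.0.16 in R 4.3.3 (TMM factors, filterByExpr with a minimum count of 10, robust quasi-likelihood fit, Benjamini-Hochberg adjustment over all genes tested, adjusted p under 0.05), with the 4 groups of a tissue in 1 fit, and with 31 libraries of both tissues in 1 fit for the differences between tissues, each library taken as independent. Alternatives were RLE factors, library totals without factors, no filter, DESeq2 1.42.0, limma 3.58.1 voom with and without sample quality weights, a replicate block, only the 2 groups compared, all 16 liver libraries and leaving out each library. The tests were tested on simulated data with known changes. These changes were larger than any reported for a member within a tissue, and the simulated spread was below that of the data. How well smaller changes are found was not tested.

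Each member was named in every comparison. Genes named from a list of the pathway were among up to 3 per direction and comparison, those called with the smallest p. Not all genes that met this rule are named. In each tissue the 5 genes most like the members were also named. The members and lists were chosen with earlier results of these data known. The labels do not say that the libraries of a group come from separate mice, so p-values measure the spread between these libraries, which may be technical. Same-numbered libraries of different groups deviated together with a mean correlation of 0.0115 in eWAT (1 of 24 pairs over 0.1) and 0.00472 in liver (6 of 21 pairs), so the replicate numbers were not taken as pairs. Same-numbered eWAT and liver libraries of 1 group had a mean correlation of 0.0460 (2 of 15 pairs over 0.1), against -0.0155 (0 of 45 pairs) for different numbers, and the labels do not say whether they come from the same mouse. 1 regulator is not reported here.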

Additional observations from a re-analysis of the deposited data

Results flagged for a closer look

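Psmb10, the immunoproteasome subunit that replaces Psmb7, was at 30.7 CPM in liver Veh NPD replicate 2, and the other 3 libraries of that group lay between 24.4 and 25.4 CPM. The gap is past Dixon's 95% critical value for 4 samples. It was the 1 such library among 70 groups of 4 tested, and chance alone flags about 1 in 20 groups.

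The mean Cort effect over both diets differed between liver and eWAT for 6 genes, as tested by the difference itself in edgeR's fit of 31 libraries. The difference, liver minus eWAT, was 0.85 for H2-K1 (adjusted p = 0.000204), 1.27 for H2-Q10 (adjusted p = 0.000548), 0.68 for B2m (adjusted p = 0.0141), 0.90 for Tap1 (adjusted p = 0.0174), 1.24 for Psmb8 (adjusted p = 0.000129) and 1.21 for Psmb9 (adjusted p = 0.00179). The effect of the HPD among Cort mice differed in the same way for H2-Q10 alone, by 1.90 (adjusted p = 0.00429).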

How the results depend on the processing

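The counts of members called were within 1.5 times of the reported count in 101 of 107 alternatives and 238 of 248 fits with 1 library left out. The exceptions among the alternatives were HPD against NPD in Cort, with 0 in eWAT by limma voom with or without quality weights and 4 in liver with library totals, the replicate block, only the 2 groups compared or all 16 liver libraries. With 1 library left out the counts were 0 to 1 for HPD against NPD in Cort in eWAT, 1 to 4 for Cort against Veh on the NPD in liver and 3 to 7 for HPD against NPD in Cort in liver. The cause was not tested. In liver, leaving out Cort NPD replicate 3 gave the lowest count of 3.

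Log2 values changed sign in 32 of 1070 alternatives, none of them called in the reported fit apart from Psmb10 in liver against eWAT. With library totals this was so in liver against eWAT for B2m (-0.88), Tap1 (-0.80), Psmb8 (-0.55) and Psmb10 (-0.38), in liver for Cort against Veh on the HPD for H2-D1 (-0.11), H2-Q10 (-0.15), Tap1 (-0.047) and Psmb9 (-0.052), for H2-K1 in HPD against NPD in Cort (-0.0026) and the interaction (-0.15), in eWAT for Tapbp in HPD against NPD in Cort (0.027), and for Psmb8 in the diet effect between tissues (-0.19). With voom it was so for Psmb10 in eWAT Veh mice between diets (-0.023), Tapbp with Cort on the NPD in liver (0.017) and Psmb8 in the diet effect between tissues (-0.085). With quality weights it was so for H2-D1 (0.023) and Psmb10 (-0.10) in eWAT Veh mice, Tapbp in eWAT Cort mice (0.0068), B2m (0.029) and Tapbp (0.062) with Cort on the NPD in liver, and Psmb8 between tissues (-0.15). Without the filter Tapbp with Cort on the NPD in liver was 0.0018. With all 16 liver libraries H2-K1 was 0.11 and Psmb8 0.026 with Cort on the HPD, H2-K1 -0.072 between diets in Veh, and H2-K1 0.046 in the diet effect between tissues, which was 0.026 with RLE factors and 0.025 with DESeq2.

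With the replicate block, 9 members were called with Cort in eWAT on the NPD, 6 on the HPD, 3 in liver on the NPD and 4 in liver for HPD against NPD in Cort. Signs changed for B2m (0.0027) and Tapbp (0.016) with Cort on the NPD in liver, Psmb8 on the HPD (0.034) and Psmb8 between tissues (-0.011).

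With 1 library left out, values that crossed 0 ranged in eWAT between diets in Veh over -0.13 to 0.063 for H2-D1, -0.23 to 0.0034 for B2m, -0.34 to 0.017 for Tap1, -0.10 to 0.30 for Psmb9 and -0.12 to 0.16 for Psmb10, between diets in Cort over -0.069 to 0.058 for Tapbp and -0.051 to 0.51 for Tap2, and for the interaction over -0.043 to 0.24 for Psmb10 and -0.42 to 0.18 for Tap2. In liver they ranged with Cort on the NPD over -0.17 to 0.089 for Tapbp and -0.12 to 0.051 for B2m, with Cort on the HPD over -0.19 to 0.14 for Psmb8, -0.35 to 0.0054 for Psmb10, -0.062 to 0.56 for Tap1, -0.015 to 0.14 for H2-Q10, -0.013 to 0.25 for H2-D1 and -0.30 to 0.0062 for Tapbp, between diets in Veh over -0.025 to 0.19 for Psmb10, and for the interaction over -0.29 to 0.015 for Tapbp. Between tissues they ranged over -0.062 to 0.094 for H2-K1 and -0.15 to 0.25 for Psmb8 in the diet effect, and -0.31 to 0.11 for Tap2 in Veh NPD.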
